A study of Mus musculus with 3 samples.

Results

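The genes described are 10 markers of endothelial cells, Ehd3, Pecam1, Emcn, Eng, Plvap, Esam, Egfl7, Ramp2, Icam2 and Cd34, measured in isolated glomeruli of the mouse kidney. They were chosen by name as endothelial surface and secreted markers, with earlier results of these data known. Their 15 probe sets with a single gene symbol were taken from 45101 probe sets on the array, and the 10 genes from 18194 genes so named. The samples were glomeruli of 3 nondiabetic male mice of the inbred strain FVB/NJ, aged 8 weeks, with RNA from a pool of glomeruli of 1 mouse on each array (n = 3). The labels name no transgene or drug for these mice, which ate a standard Purina chow and served as the wild-type controls of a study of the diabetic OVE26 line. Only this 1 group was analysed here, so the data give levels and the spread between mice, and no effect of diabetes.

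Endothelial cells line the glomerular capillaries, and their fenestrae form the first layer of the filtration barrier. Their surface carries sialomucins and adhesion molecules, and their junctions are held by cadherins and immunoglobulin-like proteins. The fenestrae of adult glomerular capillaries mostly lack the diaphragm that closes fenestrae of the peritubular capillaries. Podocytes and mesangial cells share the glomerulus with them, and an isolate can also hold tubule fragments, arterioles and blood cells.

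Promoter sequence was at hand for 5 of the 10 genes in a RefSeq table of build GRCm38.p6, as windows from 250 bases before to 50 bases after an annotated transcription start. Pecam1, Plvap, Esam, Ramp2 and Icam2 had no entry in it. The 4 genes with a single window are printed 5′ to 3′, because they include the genes with the narrowest (Ehd3) and the second widest (Emcn) range between mice. Capitals mark AGGAAG or its reverse complement CTTCCT, a core shared by sites of ETS transcription factors, a family to which the endothelial factors ERG and FLI1 belong. All 4 windows lie on the plus strand, at chr17:73804591-73804890 for Ehd3, chr3:137340828-137341127 for Emcn, chr2:32646345-32646644 for Eng and chr1:194938571-194938870 for Cd34.
Ehd3: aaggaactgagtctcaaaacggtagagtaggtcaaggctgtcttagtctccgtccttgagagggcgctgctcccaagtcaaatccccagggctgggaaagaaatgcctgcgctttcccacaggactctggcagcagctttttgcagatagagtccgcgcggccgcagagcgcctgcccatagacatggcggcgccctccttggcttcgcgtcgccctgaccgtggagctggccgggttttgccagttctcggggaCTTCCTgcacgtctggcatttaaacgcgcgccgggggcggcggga
Emcn: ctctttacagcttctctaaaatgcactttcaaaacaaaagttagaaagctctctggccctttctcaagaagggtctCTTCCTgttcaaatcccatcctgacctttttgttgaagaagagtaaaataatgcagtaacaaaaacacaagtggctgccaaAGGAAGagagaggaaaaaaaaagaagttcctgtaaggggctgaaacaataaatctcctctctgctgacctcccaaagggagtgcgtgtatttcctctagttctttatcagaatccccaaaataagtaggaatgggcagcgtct
Eng: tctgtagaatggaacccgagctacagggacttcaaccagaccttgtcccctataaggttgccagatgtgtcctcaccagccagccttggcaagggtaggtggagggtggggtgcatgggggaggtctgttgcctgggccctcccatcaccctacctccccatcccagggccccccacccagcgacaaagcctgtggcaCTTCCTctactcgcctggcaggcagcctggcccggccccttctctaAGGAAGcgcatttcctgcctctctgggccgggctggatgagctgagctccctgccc
Cd34: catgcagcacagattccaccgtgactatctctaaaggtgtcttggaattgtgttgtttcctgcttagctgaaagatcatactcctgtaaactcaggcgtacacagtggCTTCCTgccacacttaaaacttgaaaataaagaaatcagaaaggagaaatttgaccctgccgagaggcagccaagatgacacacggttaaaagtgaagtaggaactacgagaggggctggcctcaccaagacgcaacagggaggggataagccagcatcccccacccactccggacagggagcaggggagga

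The ETS core was present in each of these 4 windows. It occurred once in the windows of Ehd3 and Cd34 and 2 times in those of Emcn and Eng. Egfl7 had 3 annotated starts, whose windows held 3, 2 and 0 copies. In all, 6 of the 7 windows of these genes held the core on either strand, against 35.4% of 32851 windows of the same length. This match is a description of letters and does not show binding. On both strands, CCACCC, a core of KLF sites, was in 3 of the 7 windows (31.5% of all windows), GATAAG, a core of GATA sites, in 1 (7.44%) and the TATA box TATAAA in none (13.6%). No match overlapped another in these windows. GC content ran from 41% in Emcn to 67.3% in the last window of Egfl7, against a median of 52.7% over all windows. The Ehd3 window held 24 CpG dinucleotides and the Emcn window 2, with a median of 7 over all windows.

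The values are log2 expression values, and an array's background threshold was the 95th percentile of its 80 probe sets for olfactory and vomeronasal receptors (2.58, 2.91 and 2.86 in mice 1, 2 and 3). Above it on all 3 arrays lay 58.3% of the 18194 genes, and all 10 endothelial markers did, as did each of their 15 probe sets. Each gene is represented by its probe set with the highest mean, and each error is the SD of the 3 mice. The smallest margin over the threshold was 6.19 among the representative probe sets (Pecam1) and 5.35 among all 15 (1421335_a_at of Egfl7). Probe sets bind their targets with different strength, so values are compared between mice and not between genes. In a bulk isolate, fewer cells of a type and less RNA per cell cannot be told apart.

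**Figure D1:**
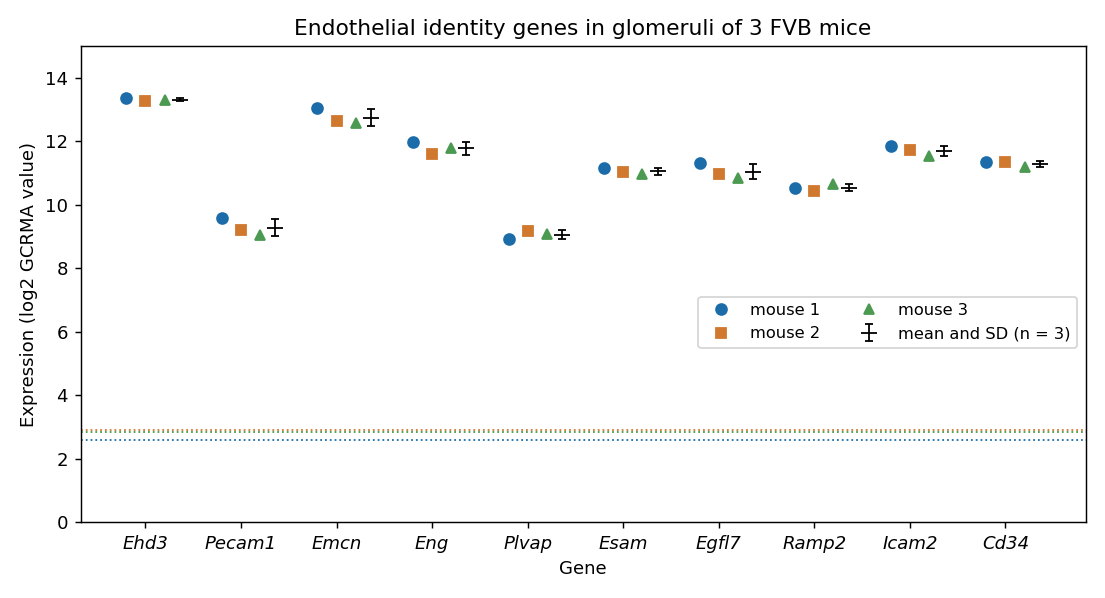
Expression of the 10 genes (log2 GCRMA value, vertical axis) in mouse 1 (circles), mouse 2 (squares) and mouse 3 (triangles), with the mean and SD over the 3 mice in black and the background threshold of each array as a dotted line. Every point lies at least 6.19 above its threshold, and the spread within a gene is small beside that distance.

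Ehd3 encodes a membrane-bending ATPase of endocytic recycling, which in the kidney marks the glomerular endothelium. It acts on the inner side of membranes and is neither a receptor nor a secreted protein. Its probe set 1417235_at read 13.36, 13.26 and 13.30 in mice 1, 2 and 3 (13.30 ± 0.05). This was the narrowest range of the 10 genes, at 0.10 or 1.07-fold. The second probe set, 1417236_at, read 12.28, 12.30 and 12.37, with its highest value in mouse 3 and its lowest in mouse 1. The mice were thus ordered differently by the 2 probe sets, at differences of about 0.10 in both.

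The sialomucins are long sugar-coated proteins of the luminal surface. Emcn, which encodes endomucin, was at 13.04, 12.62 and 12.56 in mice 1, 2 and 3 (12.74 ± 0.26). Mouse 1 lay 0.45 above the mean of the others, while mice 2 and 3 differed by 0.06. Cd34, which also marks blood progenitors, was at 11.34, 11.33 and 11.18 (11.28 ± 0.09), with the lowest value in mouse 3. The ranges were 1.39-fold for Emcn and 1.12-fold for Cd34.

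Among the adhesion molecules of the immunoglobulin family, Pecam1 encodes CD31, which binds itself across endothelial junctions and is also made by platelets and leukocytes. It was at 9.57, 9.20 and 9.04 in mice 1, 2 and 3 (9.27 ± 0.27). Its range of 0.52, or 1.44-fold, was the widest of the 10. Icam2, a ligand of the leukocyte integrin LFA-1 that is also found on blood cells, was at 11.84, 11.72 and 11.52 (11.69 ± 0.16). Esam, which is found at endothelial tight junctions and on platelets, was at 11.16, 11.04 and 10.95 (11.05 ± 0.10). All these adhesion genes were highest in mouse 1, intermediate in mouse 2 and lowest in mouse 3, with a range of 1.25-fold for Icam2 and 1.16-fold for Esam.

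The receptor components gave 2 different orders. Eng encodes endoglin, a co-receptor for BMP and TGF-beta ligands that acts with the kinase ALK1. Its probe set 1432176_a_at read 11.98, 11.58 and 11.77 in mice 1, 2 and 3 (11.78 ± 0.20), with mouse 1 highest and mouse 2 lowest. The second, 1417271_a_at, gave the same order, at 11.68, 11.29 and 11.46. Ramp2 encodes the accessory protein that turns the calcitonin receptor-like receptor into a receptor for adrenomedullin. It was at 10.52, 10.44 and 10.65 (10.54 ± 0.10), with its highest value in mouse 3 and a range of 1.15-fold.

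Plvap, which encodes the protein of fenestral and caveolar diaphragms, was at 8.92, 9.18 and 9.08 in mice 1, 2 and 3 (9.06 ± 0.13). It was the one gene of the 10 with its lowest value in mouse 1, where it lay 0.21 under the mean of the others (−0.21). Because peritubular capillaries also make this protein, its signal cannot be assigned to glomerular cells from these arrays. The same limit holds for any of the other markers that endothelial cells outside the glomerulus make. Genes of the proximal tubule, among which peritubular capillaries run, were lowest in mouse 1 for 8 of 9 measured genes, against 33.3% of all genes. Plvap was highest in mouse 2 and lay 0.03 above the others in mouse 3. The proximal tubule genes were highest in mouse 3 for 9 of 9, against 36.3% of all genes. Markers of the later nephron, collecting duct included, had medians in the order of Plvap, at −1.17, 1.21 and 0.00 in mice 1, 2 and 3. Of 5 such genes measured, 4 were highest in mouse 2 (28.6% of all genes) and 1 in mouse 3. In mouse 1, 4 of the 5 were lowest (33.3%). The part of either tubule segment in the Plvap value was not tested.

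Egfl7 encodes a protein secreted by endothelial cells into the vessel wall matrix. Its probe set 1451428_x_at read 11.31, 10.97 and 10.84 in mice 1, 2 and 3 (11.04 ± 0.24). The suffix of that probe set means, in the manufacturer's naming, that some of its probes may bind other transcripts. Of the other 3 probe sets, 1451427_a_at read 10.98, 10.75 and 10.23 and 1435823_x_at read 9.98, 9.97 and 9.48, both in the same order of mice. The last, 1421335_a_at, read 8.09, 8.93 and 8.21, with its highest value in mouse 2 and its lowest in mouse 1. With the mean over all 4 probe sets, the level of Egfl7 was 9.98. Which transcripts of Egfl7 each probe set reads was not analysed here.

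**Figure D2:**
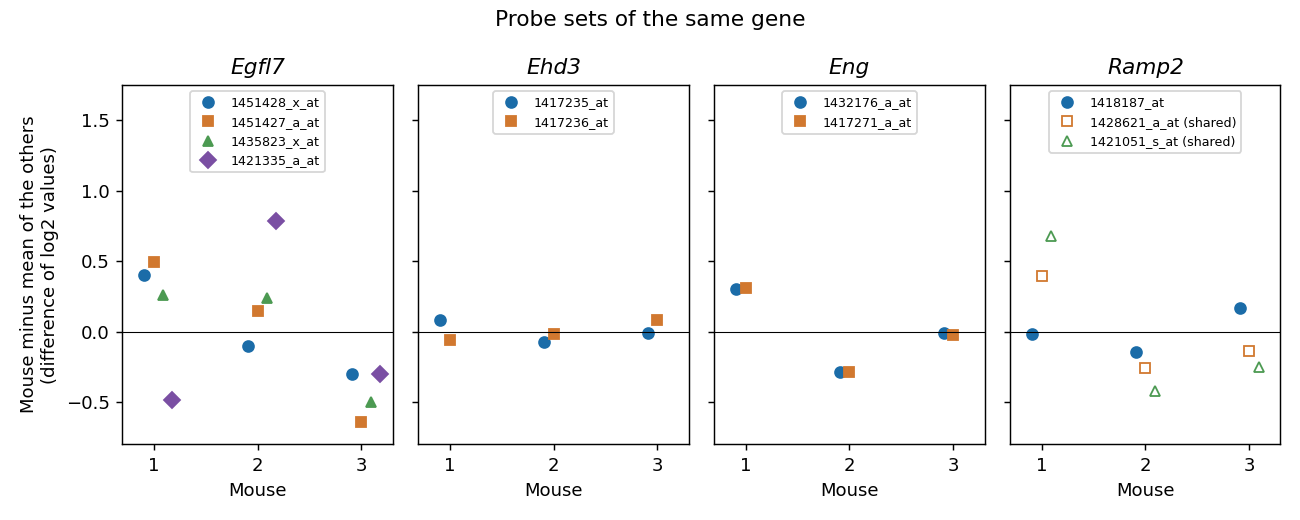
For the 4 genes with more than 1 probe set, the difference of each mouse (horizontal axis) from the mean of the other mice (log2, vertical axis), with 1 symbol per probe set and open symbols for probe sets shared with Vps25. The symbols of Eng lie on each other, those of Ehd3 lie near 0, and probe set 1421335_a_at of Egfl7 departs from the other 3, at 0.79 in mouse 2.

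Small differences between mice ran in a common direction for most of these genes. Mouse 1 was highest for 8 of the 10 genes, where 35.1% of the 10610 genes above background were highest in mouse 1. The exceptions were Plvap, the only one of the 10 highest in mouse 2 (28.6% of all genes), and Ramp2, the only one highest in mouse 3 (36.3%). The lowest value was in mouse 3 for 6 of the 10, against 31.7% of all genes, in mouse 2 for 3 (35%) and in mouse 1 for 1 (33.3%). The order mouse 1 over mouse 2 over mouse 3 was found for 6 of the 10 genes (Pecam1, Emcn, Esam, Egfl7, Icam2 and Cd34), against 17.6% of all genes. The median difference of mouse 1 from the mean of the others was 0.19, or 1.14-fold, with a median over all genes of 0.00. For mouse 2 the median over the 10 genes was −0.09 and for mouse 3 it was −0.15, against −0.02 and 0.01 over all genes. These counts have no test, since each mouse is a single sample and genes are not replicates. The count for mouse 1 was 7 of 10 after quantile normalisation and 6 of 10 when all probe sets of a gene were averaged. With that average, the median for mouse 2 was −0.031, close to the −0.020 over all genes. Without mouse 1, mouse 2 lay above mouse 3 by a median of 0.094, so the sign for mouse 2 depended on mouse 1, and the median for mouse 3 was −0.094 in place of −0.154. Without mouse 3, mouse 1 lay above mouse 2 by a median of 0.122, in place of 0.194 above both.

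**Figure D3:**
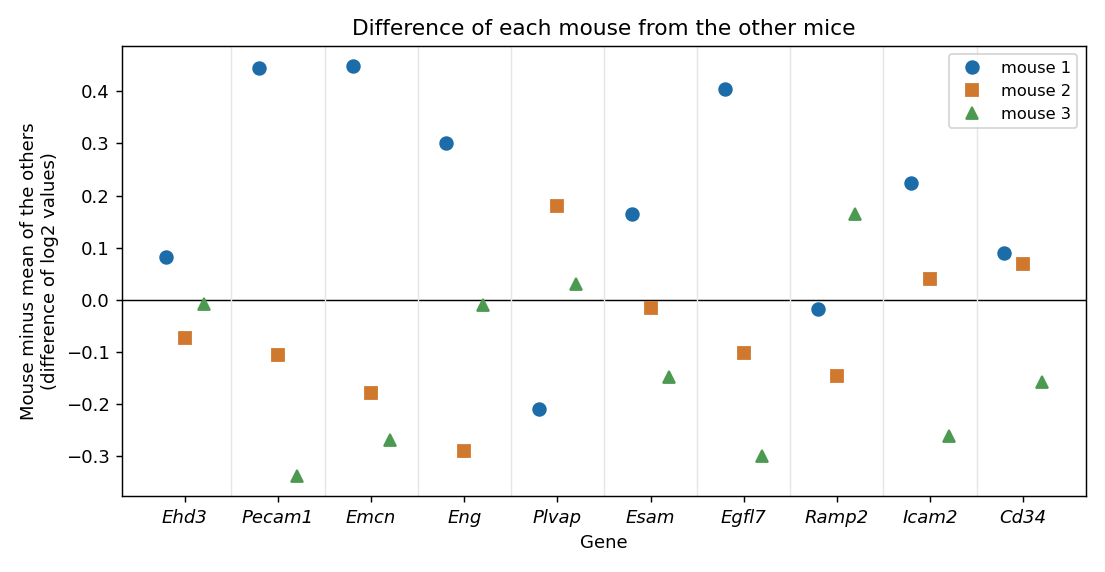
For each of the 10 genes, the value of 1 mouse minus the mean of the other mice (log2, vertical axis), in mouse 1 (circles), mouse 2 (squares) and mouse 3 (triangles). Circles lie above 0 for 8 genes and reach 0.45 for Emcn and Pecam1, and the circle of Plvap lies at −0.21.

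Markers of blood cells and the control probe sets also differed between the mice, not all in the order of the endothelial genes. Leukocyte markers were highest in mouse 1 for 7 of the 8 measured genes of a list of 12, against 35.1% of all genes. Their median difference there was 1.62. In mouse 3 their median was −1.58, and the summed linear value of the whole list was 1596, 870 and 474 in mice 1, 2 and 3. Ptprc, the pan-leukocyte phosphatase gene CD45, was at 7.43, 6.58 and 5.13, and the adaptor gene Tyrobp was at 6.78, 4.79 and 3.36. Cd3e, Cd79a, Cd68 and Itgam of that list were below background on all arrays. Of 7 platelet genes with a probe set, 1 was above background in all mice (Gp1bb), 4 gave mixed calls, and the summed linear value of the list was 122, 85 and 105. The platelet genes Itga2b and Gp5 were below background in all mice, Itga2b at 2.32, 2.33 and 2.31. All 4 genes with mixed calls were above background in mouse 1 alone, where the threshold was lowest (2.58, against 2.91 and 2.86). They included Pf4, which encodes a platelet chemokine (3.35, 2.22 and 2.16), and Ppbp (4.07, 2.36 and 2.74). Gp9 was also among them, although its value was highest in mouse 3 (2.70, 2.51 and 2.82). The erythroid list had 4 genes on the array, and 2 exceeded background on every array. These were Alas2 (3.67, 3.40 and 3.25) and Slc4a1 (3.46, 2.94 and 3.23), both highest in mouse 1. The other 2 were below background on all arrays. The summed linear value of that list was 33, 27 and 28. The platelet and erythroid sums include genes below background, so they do not measure platelet or red cell content. The actin control, whose 3′ minus 5′ signal grows as RNA degrades, gave 1.49, 1.81 and 2.05 in mice 1, 2 and 3. The Gapdh control gave 0.48, 1.08 and 0.92, lowest in mouse 1 and highest in mouse 2. All 18 control probe sets for bacterial and phage sequences were highest in mouse 2 (28.6% of all genes). Their median differences from the other mice were −0.20, 0.54 and −0.29 in mice 1, 2 and 3. The part of leukocytes, platelets, red cells, RNA quality or array differences in the endothelial values was not tested.

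Tubule, heat shock and interferon-response markers had larger differences and other orders of the mice. Proximal tubule genes had medians of −1.94, −0.61 and 2.58 in mice 1, 2 and 3, with Slc34a1, a phosphate cotransporter gene, at 4.44, 5.35 and 7.41 and the megalin gene Lrp2 at 5.04, 5.43 and 7.81. Markers of the distal nephron and collecting duct had medians of −1.17, 1.21 and 0.00, among them Umod at 12.47, 13.56 and 13.06 and Slc12a1 at 10.09, 11.68 and 10.85. Heat shock genes were lowest in mouse 1 for all 4 genes listed (33.3% of all genes), with a median of −2.57. The inducible chaperone genes Hspa1a (5.21, 10.51 and 11.13) and Hspa1b (9.79, 12.96 and 13.36) are near-identical copies that may share signal. All 5 interferon-response genes were highest in mouse 3 (median 1.64), against 36.3% of all genes. Among them were Gbp2 (9.26, 8.45 and 12.78) and Ifit1 (6.69, 5.77 and 8.19). On the representative probe sets, differences of the 10 endothelial markers from the other mice ran from −0.34 to 0.45. This span was narrower than that of the medians in each of these lists. Among the other probe sets of Egfl7, 1421335_a_at reached 0.79 in mouse 2 and 1451427_a_at reached −0.64 in mouse 3.

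**Figure D4:**
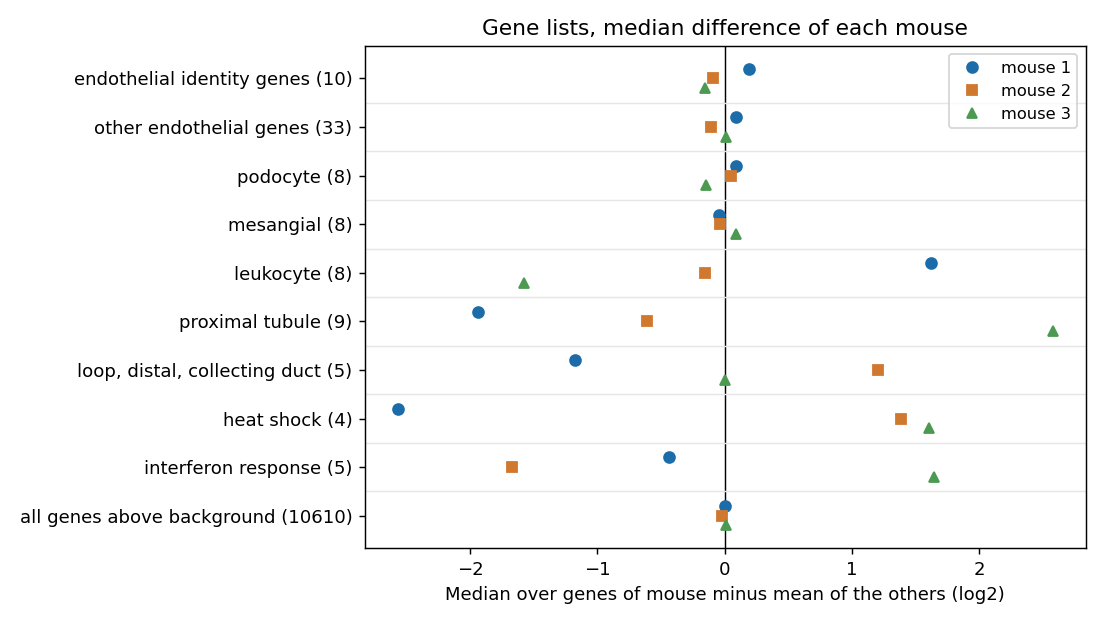
Median over the genes of a list of the difference of each mouse from the mean of the other mice (log2, horizontal axis), in mouse 1 (circles), mouse 2 (squares) and mouse 3 (triangles), with the number of genes above background in brackets. The 10 endothelial identity genes lie between −0.15 and 0.19, and the medians of the leukocyte, proximal tubule, heat shock and interferon-response lists reach 1.62, 2.58, −2.57 and −1.67.

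No range between mice reached 2-fold among the 10 genes, where 5.94% of all genes above background had a 2-fold range. Their median SD was 0.147, against 0.157 over all genes. Above a level of about 5 the typical SD falls as the level rises, so each SD was also set against the SD that limma's fit across all genes gives as typical of that level. Emcn had an SD 2.75 times the typical one, Egfl7 2.18 times, Pecam1 2.01 times, Eng 1.89 times and Icam2 1.55 times. The other 5 genes were under the typical SD, down to 0.578 times for Ehd3. Thus 5 of 10 genes lay above the typical SD, where 47.2% of all genes did. The median ratio of SD to typical SD was 1.25 over the 10 genes and 0.958 over all genes. An upper-tail F test for excess variance between mice, set against limma's fit, called 0 of the 10 genes and 0% of all 10610 genes. Its adjusted p-values were 0.971 to 0.988 over the 10 genes. The smallest adjusted p of any gene was 0.469, so this test sets no bound on the spread of the 10 genes. At an unadjusted p under 0.05 it gave 494 genes (4.66%) and none of the 10, of which Emcn had the lowest, at 0.0637 in limma's fit.

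**Figure D5:**
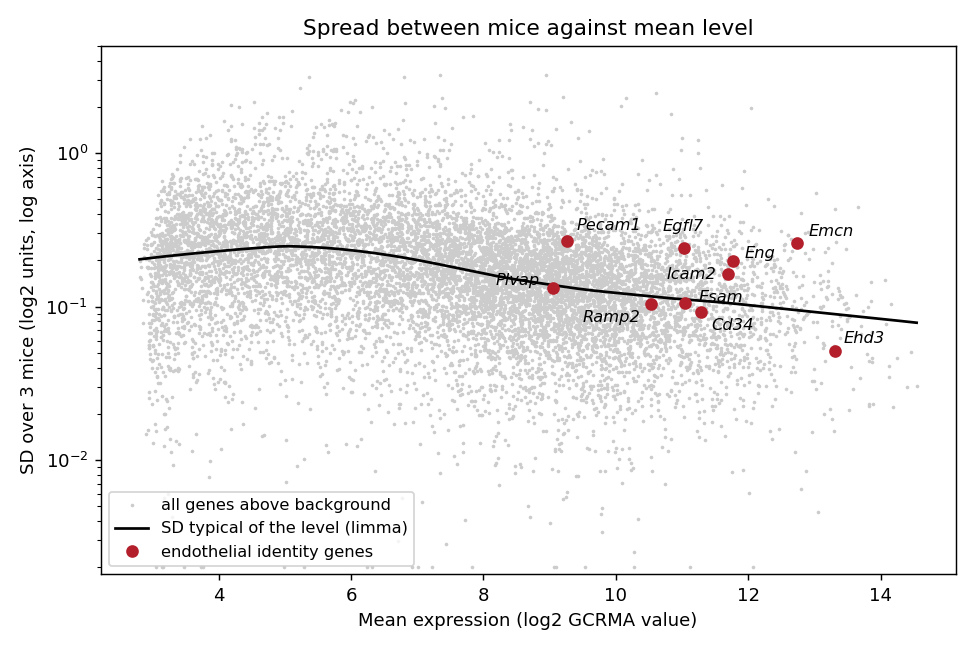
SD over 3 mice (log2 units, on a log axis) against mean expression (log2 GCRMA value) for the 10610 genes above background (grey, with SDs under 0.002 drawn at that value), the SD typical of the level from limma (line) and the 10 endothelial identity genes (red). Emcn lies farthest above the line, at 2.75 times the typical SD, and Ehd3 farthest below it, at 0.578 times.

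Other genes of the endothelium were measured in the same isolates, from 5 lists of 35 genes in all. Of these, 33 were above background in all mice, and their median SD was 0.147. Of the 33, 24 lay above the SD typical of their level, against 47.2% of all genes. Their median ratio of SD to typical SD was 1.29, against 0.958 over all genes. Mouse 1 was highest for 17 of the 33, against 35.1% of all genes. The median differences were 0.09, −0.11 and 0.01 in mice 1, 2 and 3. All 4 receptor genes for VEGF and angiopoietins were measured, with Kdr at 12.60, 12.47 and 12.39 and Flt1 at 11.45, 11.16 and 11.38. Of 10 junction and surface genes all were measured, with the VE-cadherin gene Cdh5 at 10.91, 10.82 and 10.65 and the tight junction gene Cldn5 at 11.32, 11.09 and 11.17. Aplnr, the apelin receptor gene, was the only one of the 33 with a 2-fold range, at 9.18, 9.60 and 8.43 (2.26-fold), and its adjusted p in limma's fit was 0.844. All 10 endothelial transcription factor genes were measured. The ETS factor genes Erg (10.12, 9.77 and 9.91) and Fli1 (10.59, 10.28 and 10.22) were highest in mouse 1. Of the 10 factor genes, 6 were highest in mouse 3, against 36.3% of all genes.

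Signalling partners of Eng and Ramp2 were present apart from 1 ligand. Acvrl1, which encodes ALK1, was at 8.48, 8.08 and 8.30 in mice 1, 2 and 3. Bmpr2, a type II receptor gene, was at 13.07, 12.97 and 12.91. Gdf2, which encodes the endoglin ligand BMP9, made mainly by the liver, was below background on all arrays (1.79, 1.69 and 1.82). Of the nitric oxide and haemostasis list, 4 of 5 genes were above background, with Nos3 at 8.65, 8.38 and 8.08. The exception was Vwf, which encodes von Willebrand factor, stored in endothelial granules, at 2.32, 2.06 and 1.91 and below background in all mice.

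Markers of other vessel types were measured in part. Of 3 lymphatic genes with a probe set, Lyve1 (1.99, 1.76 and 1.93) and Prox1 (1.97, 2.18 and 1.88) were below background in all mice, and Flt4, a VEGF receptor gene, was above it in all (8.51, 8.02 and 8.25). Of 5 arterial genes 4 were above background in all mice, among them the connexin gene Gja5 (4.73, 4.37 and 4.84), while Bmx was above it in 2 mice. Of 4 venous genes 2 were above background in all mice, Nr2f2 (11.25, 11.24 and 11.28) and Ephb4 (8.67, 7.86 and 8.47). Podocyte and mesangial genes, as markers of the labelled tissue, were above background for 8 of 8 genes with a probe set in each list, with Nphs1, the nephrin gene, at 11.36, 11.30 and 10.90, the podocalyxin gene Podxl at 14.56, 14.56 and 14.51, Pdgfrb at 13.28, 13.19 and 13.34 and the integrin gene Itga8 at 13.42, 13.48 and 13.25. Podocyte genes had medians of 0.09, 0.05 and −0.15 in mice 1, 2 and 3. They were highest in mouse 1 for 5 of 8 (35.1% of all genes) and lowest in mouse 3 for 7 of 8 (31.7%). Their median in mouse 3 was thus close to that of the 10 endothelial markers (−0.15). Mesangial genes had medians of −0.04, −0.04 and 0.09. Whether the endothelial differences are larger than those of podocyte genes was not tested.

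Paralogs of the 10 genes were listed because related sequences could share probes. Of 12 paralogs, 8 were above background in all mice. Ehd1 was at 9.57, 9.69 and 9.65, Ehd2 at 9.67, 9.80 and 9.61 and Ehd4 at 11.26, 11.16 and 10.91. Icam1, the inducible relative of Icam2, was the only paralog with a 2-fold range, at 8.22, 7.14 and 8.17 (2.13-fold, adjusted p 0.944 in limma's fit). Whether probes of the 10 genes bind these paralogs was not tested.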

How the data were processed

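Expression was measured in glomeruli of 3 mice, 1 array each. The deposited log2 values were made by the authors with GCRMA, per the submitters' processing notes, which corrects background by probe sequence, normalises arrays to a common distribution and summarises each probe set. That the scale is log2 was read from the values (0.67 to 14.76), and the version, the genome build and the arrays normalised together are not given in the sources used here. Normalisation across arrays can hide a shift of all genes, and the number of arrays limits the precision. Gene names came from the platform annotation (34958 with 1 symbol, 932 with several, not used), and all 10 genes matched the RefSeq table. Excess variance was tested with an upper-tail F test against a distribution fitted by limma 3.58.1 (R 4.3.3, fitFDistRobustly with a trend on level). Its p-values were adjusted by Benjamini-Hochberg over 10610 genes, with a threshold of 0.05. In a prior check on simulated data, the test called none of the genes made with a wider spread. A lack of calls thus says nothing on stability. Nothing states whether the mice came from separate litters or cages. With 1 array per mouse, technical and biological spread cannot be told apart. A 2-fold range is a difference of at least 1 on the log2 scale. Named are all 10 genes, the first 2 genes with a probe set in each list, and endothelial, partner and paralog genes that passed the test or had a 2-fold range. Gp1bb, Gp5, Gp9, Ppbp, Gdf2, Flt4, Ehd4, Slc12a3, Aqp2 and the undetected leukocyte genes were also named, some of them chosen after their values were seen. The 10 genes and the lists were chosen with earlier results of these data known. Alternatives were quantile normalisation, median centring, the mean of or each probe set, a floor at the 99th percentile, no filter, each mouse left out, and the variance fit without trend or robust step.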

Additional observations from a re-analysis of the deposited data

How the results depend on the processing

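All 10 genes (15 of 15 probe sets) stayed above background, none had a 2-fold range and none passed the adjusted test under any alternative run, where the smallest adjusted p of the 10 was 0.942. The median difference of mouse 1 stayed between 0.12 (without mouse 3) and 0.22. With each probe set on its own, 785 of 18479 probe sets had an unadjusted p under 0.05, 1 of them of these genes (Egfl7, 1451427_a_at, 0.0373 in limma's fit), and 1086 had a 2-fold range, as more features were tested. Leaving out 1 mouse gave 301 to 376 genes with an unadjusted p under 0.05, against 494, and 319 to 371 with a 2-fold range, against 630. It gave 0 to 1 of the 10 genes at that unadjusted p (Emcn without mouse 3, 0.0410 in limma's fit). For mouse 2, leaving out mouse 1 or mouse 3 moved the median difference from −0.088 to 0.094 and −0.12, and it was −0.031 with the mean over probe sets and −0.018 with each on its own, near the −0.020 over all genes. For mouse 3, leaving out mouse 1 or mouse 2 gave −0.094 and −0.208, against −0.154. With the mean over probe sets the level of Ehd3 was 12.81 and that of Egfl7 9.98. No paired analysis was possible because all arrays belong to 1 group. All 10 genes lay well above background. The number of mice limits the precision, and the part of measurement error in the spread was not tested.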

Other observations

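A pair of probe sets was annotated to both Ramp2 and Vps25, an endosomal sorting gene, and was left out by the rule on single symbols. They were looked at after the other values were seen. They read 9.30, 8.86 and 8.94 (1428621_a_at) and 8.64, 7.91 and 8.02 (1421051_s_at) in mice 1, 2 and 3, both highest in mouse 1. The probe set of Ramp2 alone was highest in mouse 3. Among endothelial genes outside the 10, S1pr1, which encodes a sphingosine phosphate receptor, was lowest in mouse 1 (7.30, 8.28 and 8.06), and Sox18 was highest in mouse 3 (10.67, 10.44 and 11.24). Both were chosen after their values were seen, and their adjusted p-values in limma's fit were 0.971 and 0.944.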
